A study of Homo sapiens with 27 samples.

Results

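SUM44 LTED-A is a variant of the SUM44 cell line that had grown for months without estrogen, and it was compared here with SUM44PE, the line as first received. SUM44 is an established line of estrogen receptor-positive invasive lobular carcinoma (ILC), the breast cancer type that typically lacks E-cadherin and grows in single files of cells. In such cells the estrogen receptor, ESR1, binds estradiol and switches on genes for proliferation, and aromatase inhibitors treat the disease by removing the hormone. Long-term estrogen deprivation (LTED) in culture is the usual laboratory model of a tumour that grows again under an aromatase inhibitor, and cells that come through it often keep ESR1 while rewiring lipid metabolism, growth factor signalling and interferon responses. The comparison took 6 of the 27 RNA-seq libraries of the series, 3 titled SUM44 LTED-A and 3 titled SUM44PE parental, and 27457 genes expressed in the SUM44 libraries of the 60619 in the count table.

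None of the cells carried an engineered allele. SUM44PE was deprived of hormone for 3 days in medium with charcoal-stripped serum before collection, so neither side was sampled in estrogen. The contrast is one of a short against a long deprivation together with the different culture history given next. These cannot be told apart in it. SUM44 LTED-A did not descend from SUM44PE in 1 step. Per the study's methods, SUM44PE was first passaged for months in another medium with whole serum to give SUM44F, and SUM44F was then held in stripped serum for months to give LTED-A and, independently, LTED-B. SUM44F, also deprived of hormone for 3 days, and LTED-B have 3 libraries each and are used below as points of reference. Each LTED line is a single derivation, the libraries of a group were wells of a plate, and p-values therefore measure the spread between wells and not between derivations.

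Total counts ran from 35614898 to 47109047 in SUM44PE and from 39941907 to 134882175 in LTED-A. LTED-A replicates 2 and 3 differed by less than sampling noise, unlike all 26 other pairs of replicates in the series, and were averaged into 1 sample, so LTED-A counts as n = 2 and SUM44PE as n = 3. A second library stood apart: SUM44F replicate 1 held 375.4 CPM (normalized counts per 1e6 counts) summed over 8 fibroblast markers where the lowest SUM44F library held 8.64 CPM. It entered no LTED-A or SUM44PE level, but it entered the shared estimate of spread, the SUM44F levels and SUM44F against SUM44PE, where 748 genes called higher became 598 without it. Luminal markers summed to 8116 to 9060 CPM in LTED-A and 7516 to 8077 CPM in SUM44PE, with all 9 above 1 CPM in both groups. Fibroblast markers summed to 5.23 to 7.18 CPM in LTED-A and 11.6 to 12.6 CPM in SUM44PE, basal markers to 5.17 to 7.56 and 10.2 to 11.8 CPM, endothelial markers to 2.88 to 3.33 and 10.83 to 11.03 CPM, and immune markers to 18.3 to 18.8 and 29.0 to 30.1 CPM. The marker sums of other cell types were thus low in both groups and lower in LTED-A, and their part in the falls described below was not tested.

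LTED-A differed from SUM44PE at 3932 genes, 14.3% of those tested, by more than 1.5-fold and with an adjusted p under 0.001 in edgeR's quasi-likelihood test. Of these, 1937 were upregulated (7.05% of genes tested) and 1995 downregulated (7.27%). The falls were the deeper ones. The median log2 fold change was 0.86 over upregulated and -1.39 over downregulated genes, and 57 genes rose but 316 fell by more than 8-fold. Of 15750 protein-coding genes tested 1719 rose and 1617 fell, and of 6457 long noncoding RNAs 133 and 241. Shares of all genes given below include noncoding genes, which were called less often than protein-coding ones. Among genes above 5 CPM the change centred above 0, at 0.17 over windows of 40 neighbouring genes. The samples of the groups did not overlap, with LTED-A higher, at 28.5% of all genes and, with LTED-A lower, at 27.7%. The balance of directions rested on the scaling: with library totals alone, which moved the median of all genes from -0.02 to -0.14, 35.3% of calls were rises, against 49.3% with the trimmed mean of M-values. Without SUM44PE replicate 1 the rises dropped to 1244, and with SUM44F replicate 1 left out the counts were 1960 and 2062.

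**Figure D1:**
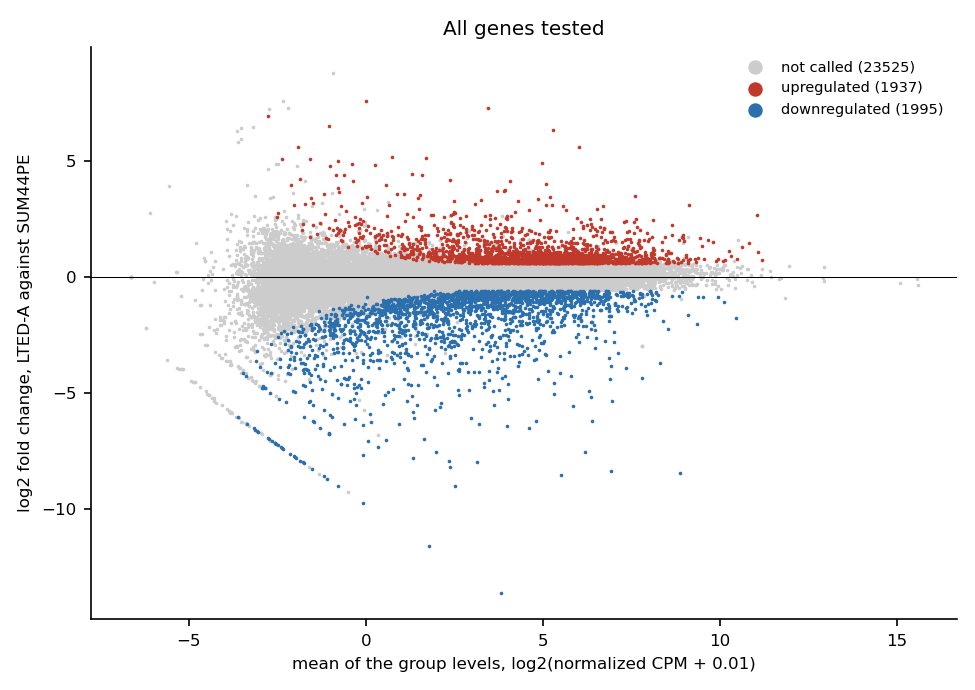
Each point is 1 of the 27457 genes tested, with the mean of the LTED-A and SUM44PE levels on the x axis (log2 of normalized CPM plus 0.01) and the log2 fold change of LTED-A against SUM44PE on the y axis. The 1937 upregulated genes (red) stay mostly within a few-fold, and the 1995 downregulated genes (blue) reach much further from 0.

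The estrogen receptor itself and some luminal factors were higher in LTED-A. ESR1 (ENSG00000091831) held 1391 and 1469 CPM in LTED-A against 849.8, 862 and 856 CPM in SUM44PE, with no overlap between groups and a log2 fold change of 0.74 ± 0.09 (adjusted p = 2.10e-05); here and below the ± is the standard error of the fit. FOXA1, the pioneer factor that opens chromatin for ESR1, stood at 654 and 708 CPM in LTED-A and 364, 374 and 383 CPM in SUM44PE (0.87 ± 0.09). GATA3, the luminal lineage factor, was at 553 and 360.0 CPM in LTED-A and at 188, 212 and 210.4 CPM in SUM44PE, and its LTED-A samples lay far apart although both were above every SUM44PE sample (1.17 ± 0.14), and it was not called in a model of LTED-A and SUM44PE alone. The retinoic acid receptor RARA and the luminal factor SPDEF rose by 1.28 ± 0.11 and 1.14 ± 0.09. In all, 6 of 20 receptor and luminal factors rose, 1 fell and 13 were not called. The falls numbered 2 without SUM44PE replicate 1, the averaged LTED-A sample or SUM44F replicate 1. SUM44F stood at 580 to 598 CPM of ESR1 in its first 2 replicates and 538 CPM in the third, below SUM44PE, a difference of -0.58 ± 0.08 that stayed just under the 1.5-fold limit.

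Classical estrogen-induced genes did not move as one. Of 32 tested, 9 rose and 7 fell, and the list's median log2 fold change was -0.12 against -0.02 over all genes. TFF1, a secreted trefoil peptide and a textbook ESR1 target, held 311 and 379 CPM in LTED-A against 75.9, 89.5 and 86.3 CPM in SUM44PE (2.04 ± 0.13, adjusted p = 4.95e-08), while SUM44F held only 16.3, 16.3 and 12.7 CPM. ELOVL2, a fatty acid elongase, rose by 2.65 ± 0.11, CCND1, the cyclin that drives entry into S phase, by 1.12 ± 0.10, and IGFBP4, which binds insulin-like growth factors, by 1.28 ± 0.17. GREB1, another direct ESR1 target, went the other way and stood at 46.8 and 43.7 CPM in LTED-A and 76.7, 76.6 and 78.4 CPM in SUM44PE (-0.77 ± 0.08), a level that SUM44F had already (48.3, 46.2 and 40.7 CPM). PDZK1, a scaffold for membrane transporters, was at 1.65 and 1.16 CPM in LTED-A and at 8.48, 8.47 and 8.28 CPM in SUM44PE (-2.62 ± 0.19). AREG, a ligand of the epidermal growth factor receptor, and PKIB, an inhibitor of protein kinase A, fell by log2 values of -3.38 and -1.99. PGR, the progesterone receptor, held 0.225 and 0.108 CPM in LTED-A against 1.41, 1.604 and 1.38 CPM in SUM44PE, clearly apart but not called (adjusted p = 0.0158); it passed once SUM44F replicate 1, which held 9.66 CPM, was left out of the fit, and in a model of LTED-A and SUM44PE alone.

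**Figure D2:**
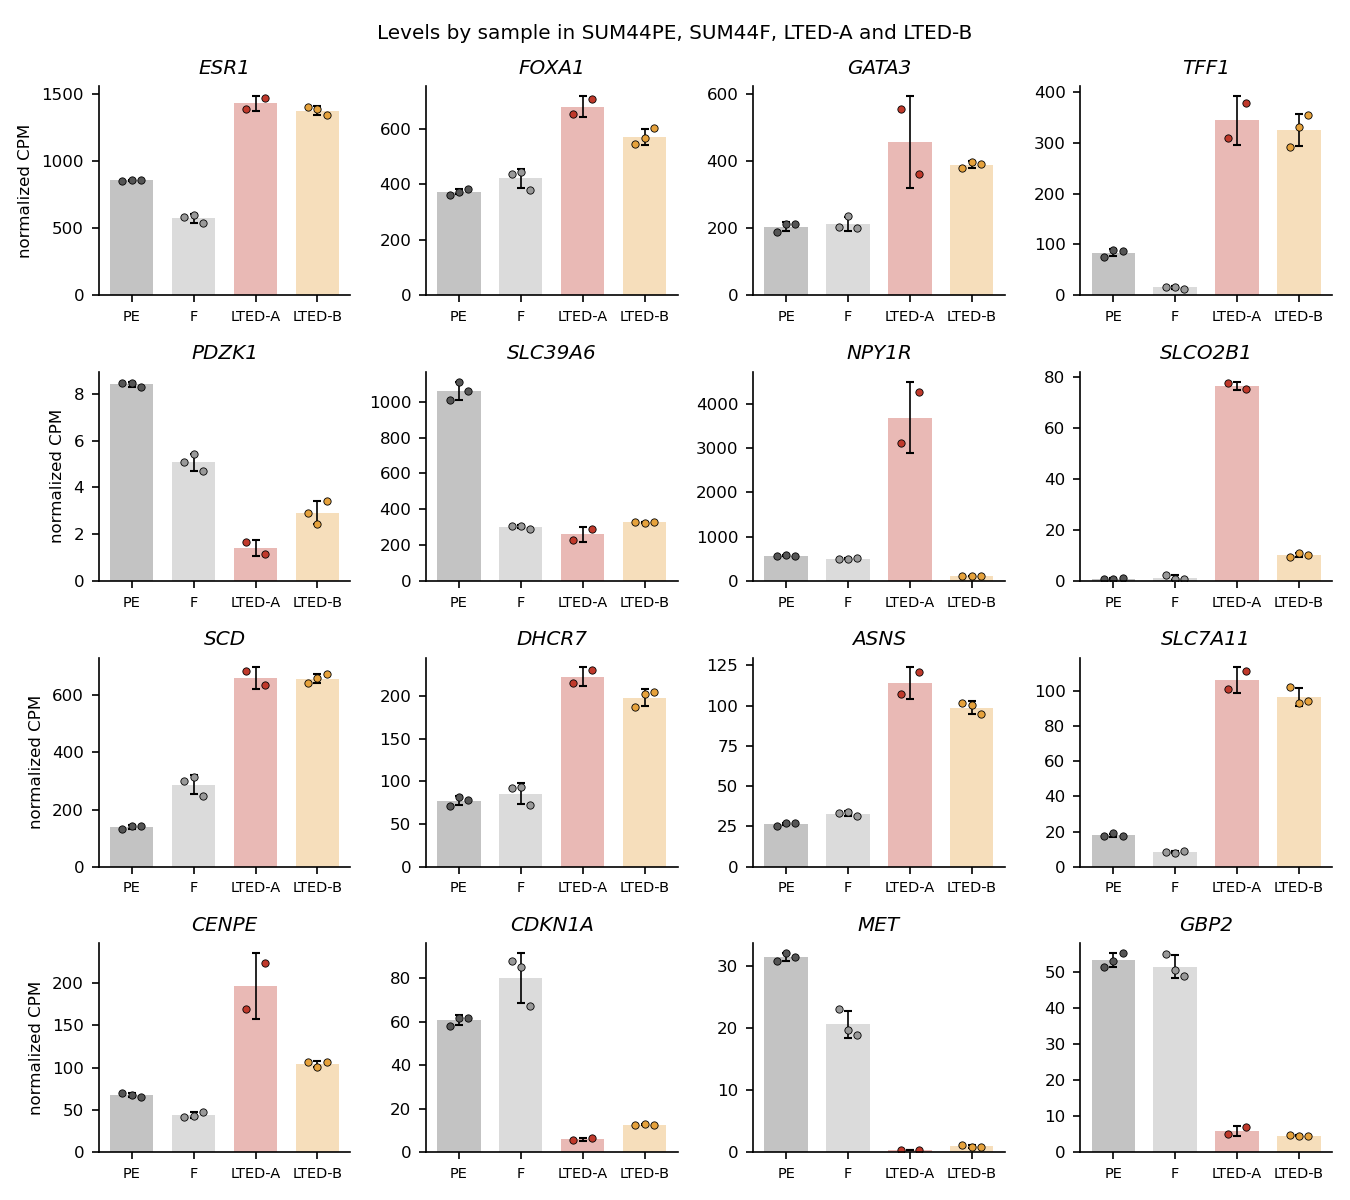
Normalized CPM of 16 genes in SUM44PE (PE), SUM44F (F), LTED-A and LTED-B, with 1 panel per gene, points for samples, bars for group means and error bars for the SD. ESR1, FOXA1 and TFF1 are higher in both LTED lines than in SUM44PE, NPY1R and SLCO2B1 are high in LTED-A above all, and MET and GBP2 are near the bottom of their axes in both LTED lines.

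The 12 protein-coding genes with the largest rises, chosen among called genes above 5 CPM in LTED-A and without overlap between groups, included several carriers and surface proteins. SLCO2B1 (chr11:75100563-75206549, plus strand), an organic anion transporter that brings steroid sulfates into cells, stood at 77.9 and 75.7 CPM in LTED-A and 0.837, 0.950 and 1.02 CPM in SUM44PE. This was a log2 fold change of 6.35 ± 0.38 (adjusted p = 3.90e-08), and LTED-B held 9.33, 10.9 and 10.1 CPM, between these groups. ROBO1 (chr3:78597239-79767998), the receptor for SLIT guidance cues, was at 64.4 and 57.6 CPM in LTED-A and at 2.21, 1.86 and 1.98 CPM in SUM44PE (4.92 ± 0.12). GJB2 (chr13:20187463-20192938), which encodes the gap junction protein connexin 26, held 5.53 and 7.03 CPM in LTED-A against 0.162, 0.169 and 0.200 CPM in SUM44PE (5.14 ± 0.20). STEAP1 (chr7:90154456-90164829), a membrane metalloreductase, stood at 24.3 and 31.8 CPM in LTED-A and 1.95, 2.13 and 2.23 CPM in SUM44PE (3.74 ± 0.13), and SUM44F held less than SUM44PE, at 0.395, 0.389 and 0.468 CPM.

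CDSN, corneodesmosin (chr6:31115087-31120446, minus strand), was at 156 and 99.8 CPM in LTED-A and at 2.27, 2.89 and 2.60 CPM in SUM44PE (5.62 ± 0.23); it lies within PSORS1C1 on the other strand, and since the strand setting of the counting is not given in the sources used here, reads of the 2 genes cannot be told apart. The remaining rises were CBR1, a carbonyl reductase, with a log2 fold change of 4.20 ± 0.20, CYFIP2, of the actin-regulating WAVE complex, with 4.13 ± 0.18, SPAG6, a protein of motile cilia, with 4.002 ± 0.097, CAMK2B, a calmodulin-dependent kinase, with 3.77 ± 0.16, S100P, a calcium-binding protein, with 3.70 ± 0.15, PGC, pepsinogen C, with 4.42 ± 0.23, and FBXL7, an F-box protein, with 3.55 ± 0.25. SPAG6 held 60.0 and 67.1 CPM in LTED-A against 3.70, 4.41 and 3.75 CPM in SUM44PE, and S100P stood at 21.8 and 26.5 CPM in LTED-A and 1.59, 1.90 and 2.08 CPM in SUM44PE. All 12 were higher in LTED-B than in SUM44PE too and passed the test there, as did 10.5% of all genes, with log2 fold changes of 1.54 (CAMK2B) to 4.71 (GJB2). That comparison reuses the SUM44PE libraries by which the genes were chosen, so the agreement is partly built in. Against SUM44F, CDSN was called lower in LTED-B (-1.17 ± 0.19). CBR1 and CAMK2B were not called there (0.11 ± 0.16 and 0.38 ± 0.14), and the others were called higher.

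The 12 largest falls, chosen by the same rule, included secreted proteins of the breast epithelium, a transporter and a calcium-binding protein. SCGB2A2, mammaglobin A (chr11:62270158-62273160, plus strand), was at 2.03 and 3.01 CPM in LTED-A and at 885, 957 and 940.5 CPM in SUM44PE (-8.47 ± 0.17, adjusted p = 6.85e-12). PIP, prolactin-induced protein (chr7:143132077-143139739), held 0.651 and 0.832 CPM in LTED-A against 135, 150 and 149.6 CPM in SUM44PE (-7.55 ± 0.12). S100A9 (chr1:153357854-153361023), a subunit of calprotectin, stood at 0.451 and 0.859 CPM in LTED-A and 228, 252 and 244 CPM in SUM44PE (-8.37 ± 0.18). Its level in LTED-B was 74.3, 77.9 and 72.2 CPM, far above LTED-A, and the difference between the LTED lines passed the test. SLC5A8 (chr12:101155493-101210238), a sodium-coupled transporter of short-chain fatty acids, was at 0.300 and 0.217 CPM in LTED-A and at 87.6, 91.3 and 91.6 CPM in SUM44PE (-8.53 ± 0.12). These 4 genes went from well expressed to at most a few CPM.

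Several genes reached the limit of detection in LTED-A, where 3 counts in the shallower library correspond to 0.0751 CPM. CCDC178 (chr18:32937402-33441101) had no count in either LTED-A sample and 28.6, 28.5 and 27.7 CPM in SUM44PE, so it was at least 376-fold lower, with the bound set at 3 counts in the shallower LTED-A library. NTS, the precursor of the peptide neurotensin (chr12:85874295-85882992), had no count in LTED-A and 6.35, 6.88 and 7.30 CPM in SUM44PE, at least 91.1-fold lower by the same bound, and no count in any SUM44F library. The zeros limit the level and do not show that the genes were silent. CPA6, a carboxypeptidase, held 0.0250 and 0.0181 CPM in LTED-A against 11.2, 12.03 and 11.3 CPM in SUM44PE, a level of under 3 counts in each LTED-A library. NTRK2, the receptor for brain-derived neurotrophic factor, stood at 0.0250 and 0.0362 CPM in LTED-A and 10.8, 9.71 and 10.6 CPM in SUM44PE (-8.20 ± 0.22), and SUM44F held more than SUM44PE, at 27.4, 30.2 and 33.5 CPM. ANXA1, annexin A1, was at 0.0501 and 0.0362 CPM in LTED-A and at 7.73, 8.51 and 7.38 CPM in SUM44PE (-7.54 ± 0.26), again with more in SUM44F (24.96, 22.9 and 22.5 CPM). DNAJC15, a mitochondrial co-chaperone, held 0.0751 and 0.0633 CPM in LTED-A against 17.4, 17.7 and 17.4 CPM in SUM44PE (-7.99 ± 0.26), with SUM44F in between at 1.16, 0.778 and 0.880 CPM. MEPE, a secreted matrix phosphoglycoprotein, and TMPRSS11E, a membrane serine protease, had log2 fold changes of -7.95 ± 0.41 and -6.99 ± 0.23.

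**Figure D3:**
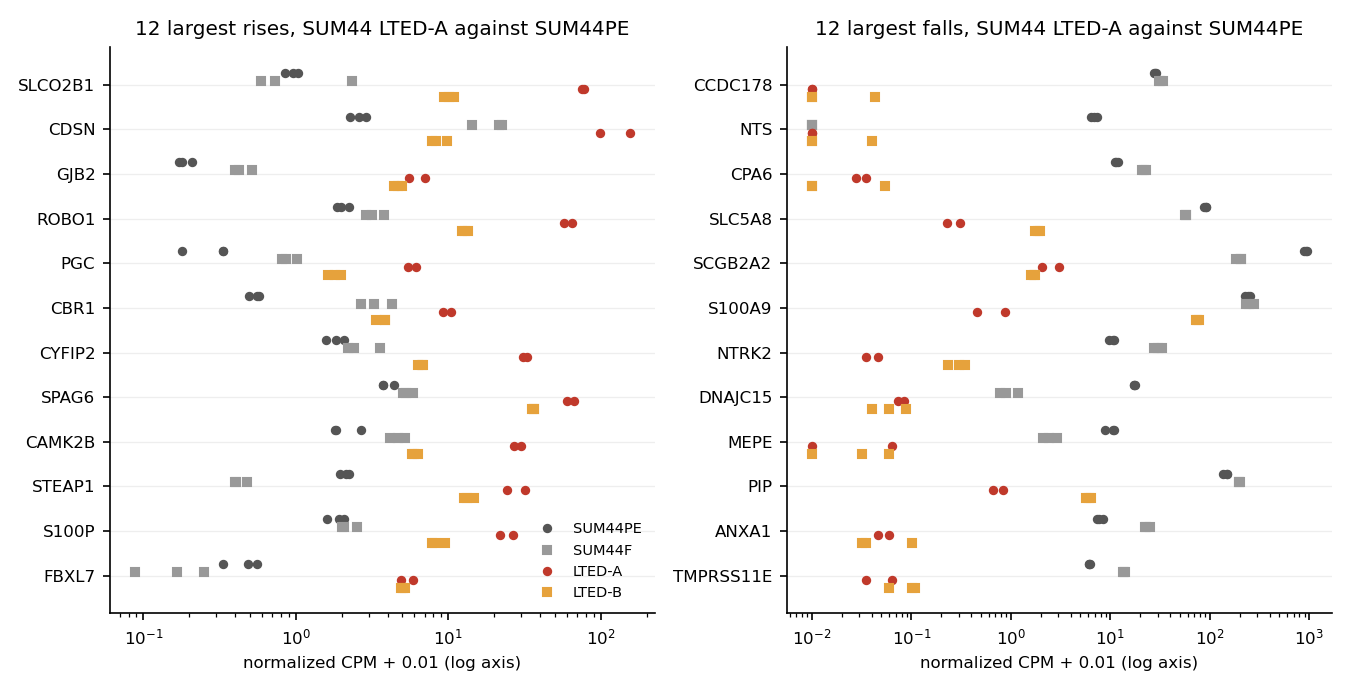
Normalized CPM plus 0.01 (log axis) of the genes with the 12 largest rises (left) and the 12 largest falls (right), with 1 point per sample for SUM44PE (dark circles), SUM44F (grey squares), LTED-A (red circles) and LTED-B (orange squares). LTED-A and SUM44PE samples do not overlap for any of the 24 genes, which the choice of genes requires, and the SUM44F points fall on either side of SUM44PE.

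Counted in CPM, which is not corrected for gene length, the 4 largest gains were those of NPY1R, SLC12A2, TRPS1 and the mitochondrial MT-CO2. NPY1R (chr4:163323962-163344832, minus strand), the neuropeptide Y receptor that luminal tumours express, stood at 3119 and 4263 CPM in LTED-A and 559, 584 and 573 CPM in SUM44PE (2.69 ± 0.12, adjusted p = 2.53e-09). LTED-B held 114, 110.0 and 122 CPM, below SUM44PE. SLC12A2, the sodium-potassium-chloride cotransporter, was at 2465 and 2843 CPM in LTED-A and at 929.6, 991 and 959.9 CPM in SUM44PE (1.47 ± 0.10), and TRPS1, a GATA-type repressor typical of breast epithelium, held 2295 and 2206 CPM in LTED-A against 909.7, 899.9 and 924 CPM in SUM44PE (1.30 ± 0.09). The largest losses were, beside SCGB2A2, those of CD24, a mucin-like surface protein, SLC39A6, the estrogen-induced zinc transporter LIV-1, and CLU, the chaperone clusterin. CD24 stood at 558 and 719 CPM in LTED-A and 2068, 2230 and 2168 CPM in SUM44PE (-1.75 ± 0.12). SLC39A6 was at 228 and 289.9 CPM in LTED-A and at 1010, 1111 and 1062 CPM in SUM44PE (-2.03 ± 0.11), and SUM44F had nearly the level of LTED-A, 309, 304 and 292 CPM. CLU held 673 and 755 CPM in LTED-A against 1434, 1571 and 1519 CPM in SUM44PE (-1.08 ± 0.14), but rose in SUM44F to 3154, 3014 and 2303 CPM.

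SUM44F is a step between the 2 lines, and the test of SUM44F against SUM44PE is also the test of whether a change against SUM44PE differs from that against SUM44F, since the comparisons share the LTED-A samples. Here 748 genes were higher (2.72%) and 782 lower (2.85%) in SUM44F, 5.57% of all genes together. Some of the LTED-A differences from SUM44PE were found in SUM44F at a similar size. Among falls with under 1.5-fold between LTED-A and SUM44F, CDH10, a type II cadherin, stood at 0.325 and 0.0904 CPM in LTED-A and 7.70, 8.53 and 8.73 CPM in SUM44PE and 0.220, 0.311 and 0.0780 CPM in SUM44F. SLC30A8, a zinc transporter, was at 2.50 and 2.71 CPM in LTED-A and at 54.2, 57.4 and 55.5 CPM in SUM44PE and 2.88, 3.15 and 3.14 CPM in SUM44F. TSPOAP1, NXPH1 and ZNF662 showed the same order, with log2 fold changes against SUM44PE of -4.45 ± 0.23, -4.10 ± 0.21 and -3.04 ± 0.32 in LTED-A and -4.82 ± 0.20, -4.46 ± 0.18 and -2.84 ± 0.27 in SUM44F. Among rises of this kind, PTPRG, a receptor tyrosine phosphatase, held 40.8 and 40.1 CPM in LTED-A against 10.1, 9.78 and 10.3 CPM in SUM44PE and 40.3, 37.1 and 37.3 CPM in SUM44F. C4orf19, KCNH2, C21orf91, PTPRT and C12orf75 rose by 1.99 to 2.78 in LTED-A and by 1.84 to 2.65 in SUM44F on the log2 scale.

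For other changes SUM44F lay within 1.5-fold of SUM44PE, which leaves room for smaller shifts. SLC7A1, the carrier of cationic amino acids, stood at 418 and 295 CPM in LTED-A and 29.8, 31.5 and 34.0 CPM in SUM44PE and 28.4, 30.8 and 25.8 CPM in SUM44F (LTED-A against SUM44PE 3.49 ± 0.13, SUM44F against SUM44PE -0.17 ± 0.11). CPB1, a carboxypeptidase, was at 60.9 and 75.7 CPM in LTED-A and at 8.27, 7.71 and 7.45 CPM in SUM44PE and 8.10, 6.99 and 6.69 CPM in SUM44F. With SLCO2B1, CYFIP2, SPAG6 and S100P these were the 6 largest rises that passed against both cultures with SUM44F within 1.5-fold of SUM44PE. The matching falls were CCDC178, S100A9, PIP, ARSJ, SYTL5 and PDZK1IP1. ARSJ, a sulfatase, held 0.175 and 0.244 CPM in LTED-A against 18.3, 19.0 and 17.5 CPM in SUM44PE and 16.8, 16.5 and 15.7 CPM in SUM44F. SYTL5, a synaptotagmin-like trafficking protein, stood at 0.225 and 0.226 CPM in LTED-A and 14.9, 16.3 and 15.3 CPM in SUM44PE (-6.09 ± 0.14), and PDZK1IP1, a small membrane protein, was at 0.175 and 0.199 CPM in LTED-A and at 8.73, 8.82 and 7.78 CPM in SUM44PE (-5.45 ± 0.19). PDZK1IP1 kept 6.30, 6.27 and 6.13 CPM in LTED-B.

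Genes of proliferation were higher in LTED-A. Of 51 DNA replication genes and E2F targets, 28 rose and none fell, with a list median of 0.62, and of 52 mitotic genes 28 rose and none fell, with a median of 0.64. The log2 fold change was above 0 for 49 of the 51 and 51 of the 52, where windows of genes above 5 CPM centred on 0.17. GINS3 and POLD1, of the replication fork, rose by 1.46 ± 0.09 and 1.31 ± 0.08, and E2F2 and MCM10 by 1.00 ± 0.08 and 0.95 ± 0.09. CENPE, the kinesin that links chromosomes to the spindle, held 169 and 224 CPM in LTED-A against 69.6, 67.2 and 64.8 CPM in SUM44PE (1.55 ± 0.10). CDC25B, the phosphatase that activates mitotic CDK1, stood at 188 and 137 CPM in LTED-A and 51.0, 54.1 and 53.5 CPM in SUM44PE (1.62 ± 0.11), and MYBL2 and UBE2C rose by 1.22 ± 0.09 and 1.11 ± 0.08. MKI67, the antigen counted by pathologists, was at 347 and 205 CPM in LTED-A and at 121, 126 and 132 CPM in SUM44PE, a wide gap between the LTED-A samples (1.13 ± 0.16). CCNB1 and PLK1 missed the fold limit (0.51 ± 0.10 and 0.56 ± 0.10). With library totals alone MCM2, E2F1, TOP2A and PCNA were not called. In a model of LTED-A and SUM44PE alone MKI67, MCM2, TOP2A and PCNA were not called. The call of MKI67 was lost without SUM44PE replicate 1, those of MCM2, E2F1 and TOP2A (log2 fold changes of 0.64 to 0.67) without that sample or without the averaged LTED-A sample, and that of PCNA (0.61 ± 0.10) without any 1 of these or of the other SUM44PE samples. Without the averaged LTED-A sample 16 of the replication genes passed.

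The size of the rise differed between the 2 parental cultures. Against SUM44F, where 7.93% of all genes were called higher and 8.29% lower in LTED-A, 49 mitotic genes passed with a median of 1.05, and in SUM44F 13 of the 52 were called lower than in SUM44PE with a median of -0.41. The brakes of the cell cycle did not move together. CDKN1A, the p21 inhibitor of cyclin-dependent kinases, held 5.53 and 6.47 CPM in LTED-A against 57.9, 61.9 and 61.9 CPM in SUM44PE (-3.32 ± 0.12, adjusted p = 4.49e-10), whereas CDKN1B, the p27 inhibitor, stood at 227 and 303 CPM in LTED-A and 105, 118 and 114 CPM in SUM44PE (1.24 ± 0.10). CCND1 was at 1640 and 1681 CPM in LTED-A and at 724, 786 and 784 CPM in SUM44PE. RBL2, a pocket protein, fell by a log2 value of -0.86, and RB1 held 37.0 and 44.1 CPM in LTED-A against 34.4, 35.9 and 36.2 CPM in SUM44PE (0.19 ± 0.08, not called). Of 16 kinases and inhibitors 5 rose and 3 fell, and the rises numbered 3 without SUM44PE replicate 1 and 2 without the averaged LTED-A sample.

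The promoters of these genes, the 250 bases before the start sites in RefSeq (GRCh38.p14), often hold the letters that cell cycle regulators bind. The 3 shown were chosen for holding a match, among called genes in order of the size of their change. CDC25B, CENPE, GINS3 and POLD1 rose more and were passed over for lack of a match or an entry. Of the 44 mitotic genes with an entry, 24 (54.5%) held TTTGAA, the core of the cell cycle genes homology region, on either strand, against 13.6% of 27305 promoters, and 32 (72.7%) held CCAAT against 33.0%. TTTNNCGC, an E2F pattern, stood in 17 of 43 replication promoters (39.5%) and in 5.93% of all. That list was chosen to hold E2F targets, so an excess over all promoters comes with the choice. Called genes held the letters about as often as their lists did. TTTGAA stood in 13 of 23 called mitotic genes and the E2F pattern in 9 of 26 called replication genes. Capitals mark TTTGAA and CCAAT or their reverse complements in MKI67 and ECT2, where 2 of them overlap in MKI67, and TTTNNCGC in POLA2. These are letter matches, and binding was not measured.
MKI67, chr10:128126424-128126673, minus strand: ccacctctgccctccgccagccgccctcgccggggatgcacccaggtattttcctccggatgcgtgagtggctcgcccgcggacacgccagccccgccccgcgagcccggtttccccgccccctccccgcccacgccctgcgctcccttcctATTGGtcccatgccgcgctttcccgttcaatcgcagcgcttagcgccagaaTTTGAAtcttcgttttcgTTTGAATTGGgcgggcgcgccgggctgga
ECT2, chr3:172750476-172750725, plus strand: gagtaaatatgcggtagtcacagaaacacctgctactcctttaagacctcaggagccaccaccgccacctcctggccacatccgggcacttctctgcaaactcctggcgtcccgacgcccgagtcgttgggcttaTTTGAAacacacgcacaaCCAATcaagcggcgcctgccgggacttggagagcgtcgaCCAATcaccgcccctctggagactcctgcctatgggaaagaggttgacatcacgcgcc
POLA2, chr11:65261712-65261961, plus strand: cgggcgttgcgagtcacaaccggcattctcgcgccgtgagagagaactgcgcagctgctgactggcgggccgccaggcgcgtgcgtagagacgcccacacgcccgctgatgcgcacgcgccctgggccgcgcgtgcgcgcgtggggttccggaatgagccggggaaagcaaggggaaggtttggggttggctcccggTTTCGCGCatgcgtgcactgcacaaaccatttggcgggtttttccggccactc
The 3 genes rose in LTED-A by 1.13 ± 0.16 (MKI67), 1.06 (ECT2) and 1.04 ± 0.08 (POLA2) on the log2 scale.

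Of 28 genes of cholesterol synthesis and uptake 17 rose and none fell, with a median of 0.74. The transcription factor of the pathway, SREBF2, stood at 261 and 185 CPM in LTED-A and 86.0, 94.2 and 94.4 CPM in SUM44PE (1.28 ± 0.13), with the LTED-A samples again apart from each other. Its targets included DHCR7, the last enzyme of the Kandutsch-Russell branch, which was at 215 and 230.0 CPM in LTED-A and at 71.1, 81.5 and 78.3 CPM in SUM44PE (1.53 ± 0.11), SQLE, the epoxidase that commits carbon to sterols (1.496 ± 0.079), and MSMO1, a sterol demethylase (1.49 ± 0.09). HMGCS1 held 76.2 and 86.1 CPM in LTED-A against 63.5, 70.0 and 67.3 CPM in SUM44PE and was not called (0.28 ± 0.08). NPC1L1 and STARD4, carriers of sterol, were higher by 1.34 ± 0.13 and 1.51 ± 0.14, and both had risen as much or more in SUM44F (1.34 ± 0.12 and 1.93 ± 0.13).

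Several enzymes of fatty acid synthesis rose. SCD, which makes monounsaturated fatty acids, stood at 686 and 634 CPM in LTED-A and 132, 142 and 144 CPM in SUM44PE (2.24 ± 0.10, adjusted p = 2.30e-09), and SUM44F lay in between at 301, 313 and 248 CPM. FASN was at 781 and 610.2 CPM in LTED-A and at 220.2, 241 and 234 CPM in SUM44PE (1.59 ± 0.12), SREBF1, its regulator, held 269 and 262 CPM in LTED-A against 89.9, 94.3 and 94.1 CPM in SUM44PE (1.52 ± 0.10), and ELOVL6, the elongase, rose by 1.495 ± 0.096; ACLY, FADS1, ACSL1 and ACACA rose as well. SREBF1, FASN and SCD also passed in SUM44F against SUM44PE, by 0.61 ± 0.09, 0.72 ± 0.11 and 1.04 ± 0.09. The list as a whole was mixed, 8 of 29 up and 5 down with a median of -0.01. THRSP, a lipogenic cofactor, had the lowest value of the list (-1.97 ± 0.19), although SUM44F held 51.9, 50.6 and 39.6 CPM against 3.94, 4.20 and 4.15 in SUM44PE. DGAT2, MLXIPL, LPIN1 and ACSS2 were the other falls.

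Of 30 genes of fatty acid oxidation and ketone metabolism 2 rose, near the 7.05% of all genes called up. In the same list 6 fell, where 7.27% of all genes were called down. The rises numbered 1 without SUM44PE replicate 1, and their number also changed with either LTED-A sample left out. CPT1A, the gate to mitochondria, stood at 709 and 669 CPM in LTED-A and 702, 736 and 729.8 CPM in SUM44PE with overlapping groups. BDH2, ACADS and ACAA2 fell by log2 values of -1.14, -1.13 and -0.90. Of 14 LXR targets and efflux genes 2 rose and 3 fell, with NPC2, the lysosomal sterol carrier, at -1.04 ± 0.10 and ABCG1 at 0.09 ± 0.08 with overlapping groups. The 2 rises were not called without SUM44PE replicate 1 or the averaged LTED-A sample, and 1 of them was called without any 1 of the other samples. ABCA1, the cholesterol exporter, was at 0.325 and 0.452 CPM in LTED-A and at 0.973, 1.31 and 1.05 CPM in SUM44PE and was not called; it passed with SUM44F replicate 1 left out.

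A nonameric sterol element, TCACNCCAC, was rare in the cholesterol promoters, in 1 of 22 with an entry (4.55%) against 0.875% of all promoters, and the 1 was that of SREBF2 itself, shown with the match in capitals.
SREBF2, chr22:41832855-41833104, plus strand: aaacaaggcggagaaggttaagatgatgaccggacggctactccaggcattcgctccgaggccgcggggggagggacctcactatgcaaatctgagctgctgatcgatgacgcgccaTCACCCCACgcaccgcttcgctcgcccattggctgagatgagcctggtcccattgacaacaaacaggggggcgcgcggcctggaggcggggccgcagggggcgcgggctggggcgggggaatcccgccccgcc

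Of 29 genes of the unfolded protein and integrated stress responses, 15 rose and 2 fell, with a median of 0.60. ATF4, the factor that the integrated stress response induces, held 484 and 574 CPM in LTED-A against 249.6, 265 and 259.7 CPM in SUM44PE (1.03 ± 0.10). ASNS, asparagine synthetase, stood at 107 and 121 CPM in LTED-A and 25.5, 27.1 and 26.9 CPM in SUM44PE (2.10 ± 0.07, adjusted p = 1.90e-10). SLC7A11, the cystine importer, was at 101 and 111 CPM in LTED-A and at 17.2, 19.0 and 17.4 CPM in SUM44PE (2.57 ± 0.08), and SUM44F held less than SUM44PE (8.52, 7.65 and 9.11 CPM). CHAC1, which degrades glutathione, SHMT2, of mitochondrial serine catabolism, and TRIB3, a pseudokinase, rose by 1.64 ± 0.11, 1.56 ± 0.10 and 1.34 ± 0.09. HSPA5, the endoplasmic reticulum chaperone BiP, held 159.8 and 145 CPM in LTED-A against 112, 121 and 126 CPM in SUM44PE and was not called (0.35 ± 0.12), and DNAJC3 and PPP1R15A fell. DDIT3, which encodes CHOP, rose (0.82 ± 0.11) but lost its call without the averaged LTED-A sample.

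ASNS and CHAC1 were the called genes of this list with the largest changes whose promoters held TGATGNAA, the core of the amino acid response element. It stood in 4 of 27 promoters of the list (14.8%), among them 3 of 15 called genes, and in 3.19% of all. Capitals mark it, or its reverse complement in CHAC1.
ASNS, chr7:97872409-97872658, minus strand: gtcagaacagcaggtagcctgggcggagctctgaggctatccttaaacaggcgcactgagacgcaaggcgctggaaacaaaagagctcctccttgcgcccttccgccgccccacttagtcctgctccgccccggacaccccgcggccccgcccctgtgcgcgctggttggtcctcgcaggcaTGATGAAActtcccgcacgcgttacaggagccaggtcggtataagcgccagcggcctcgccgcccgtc
CHAC1, chr15:40953221-40953470, plus strand: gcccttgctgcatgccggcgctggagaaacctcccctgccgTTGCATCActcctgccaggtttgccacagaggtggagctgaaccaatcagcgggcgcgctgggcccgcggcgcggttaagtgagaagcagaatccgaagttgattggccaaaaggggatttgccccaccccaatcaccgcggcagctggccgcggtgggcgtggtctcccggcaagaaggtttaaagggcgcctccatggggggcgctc

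Interferon-stimulated genes were lower, 14 of 39 down and 1 up (ISG20), with a median of -0.61. GBP2, an interferon-induced GTPase, stood at 4.98 and 6.91 CPM in LTED-A and 51.2, 53.2 and 55.2 CPM in SUM44PE (-3.14 ± 0.12, adjusted p = 5.99e-10). SAMD9, an antiviral effector, was at 2.88 and 3.73 CPM in LTED-A and at 19.1, 20.6 and 19.6 CPM in SUM44PE (-2.56 ± 0.13). IFI6 and OAS1 fell by log2 values of -2.46 and -2.37, and IFIT1, IFIT2, IFIT3, OAS2, OASL, IRF1 and IRF9 fell too. EPSTI1 held 0 and 0.0271 CPM in LTED-A against 0.729, 0.549 and 0.375 CPM in SUM44PE and CMPK2 stood at 0.0250 and 0.0362 CPM in LTED-A and 0.405, 0.718 and 0.5 CPM in SUM44PE, both called but at under 1 CPM. IFI44 was at 0 and 0.00904 CPM in LTED-A and at 0.162, 0.127 and 0.175 CPM in SUM44PE, at most 1 count in a LTED-A library, and lost its call without any 1 of the SUM44PE or LTED-A samples. Not every member moved: ISG15, a ubiquitin-like modifier, held 13.5 and 16.2 CPM in LTED-A against 13.99, 14.6 and 14.9 CPM in SUM44PE with overlapping groups. The core of the interferon-stimulated response element is GAAA repeated after any 2 bases. It stood in 18 of 30 promoters of the list (60.0%) and in 3.07% of all. The list was chosen as interferon-stimulated, so an excess over all promoters comes with the choice, and 7 of 11 called genes held it. The promoter of EPSTI1 is shown with the core in capitals.
EPSTI1, chr13:42992242-42992491, minus strand: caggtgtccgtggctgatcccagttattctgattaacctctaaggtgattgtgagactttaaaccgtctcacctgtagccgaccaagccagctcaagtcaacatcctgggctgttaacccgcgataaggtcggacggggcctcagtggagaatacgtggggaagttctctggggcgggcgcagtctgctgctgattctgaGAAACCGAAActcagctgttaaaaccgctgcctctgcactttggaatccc

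Antigen presentation was lower in part. CD74, the invariant chain of MHC class II, stood at 4.73 and 4.49 CPM in LTED-A and 19.96, 20.2 and 19.5 CPM in SUM44PE (-2.11 ± 0.14, adjusted p = 1.43e-07), and HLA-DMA, which loads peptides, was at 4.005 and 3.54 CPM in LTED-A and at 9.94, 9.65 and 10.4 CPM in SUM44PE (-1.41 ± 0.14). In the class II list 3 of 13 fell and none rose, with a median of -0.53. In the class I list 5 of 17 fell and none rose. B2M, the light chain of class I, held 158 and 213 CPM in LTED-A against 345, 370.5 and 354 CPM in SUM44PE (-0.94 ± 0.11), a call lost in a model of these groups alone, and ERAP1 and ERAP2, which trim peptides, fell by log2 values of -1.08 and -1.61. TAP1, the peptide transporter, stood at 34.4 and 39.2 CPM in LTED-A and 38.8, 40.1 and 37.7 CPM in SUM44PE with overlapping groups. Reads of HLA genes can be shared among near-identical copies. The class I falls dropped to 3 without SUM44PE replicate 2 or 3 or either LTED-A sample. CIITA, the master regulator of class II, was at 6.38 and 5.64 CPM in LTED-A and at 9.72, 9.37 and 8.58 CPM in SUM44PE and missed the threshold (adjusted p = 0.00103).

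Receptors of growth factors were rearranged, with 6 of 18 down and 2 up. MET, the receptor of hepatocyte growth factor, held 0.376 and 0.362 CPM in LTED-A against 30.9, 32.1 and 31.5 CPM in SUM44PE (-6.42 ± 0.17, adjusted p = 2.91e-11). IRS1, the docking protein below the insulin-like growth factor 1 receptor, stood at 4.91 and 4.20 CPM in LTED-A and 50.8, 53.5 and 51.4 CPM in SUM44PE (-3.52 ± 0.10), and IRS2 fell by a log2 value of -1.53. IGF1R itself was at 320.1 and 186 CPM in LTED-A and at 249.5, 270.0 and 272 CPM in SUM44PE with overlapping groups. FGFR4 held 402 and 426 CPM in LTED-A against 118, 127 and 126 CPM in SUM44PE (1.74 ± 0.09), whereas FGFR1 stood at 387 and 385 CPM in LTED-A and 523, 537 and 537 CPM in SUM44PE and missed the fold limit (-0.46 ± 0.09). FGFR3 was at 5.01 and 5.81 CPM in LTED-A and at 17.3, 17.0 and 17.3 CPM in SUM44PE (-1.66 ± 0.12), a level that SUM44F had (5.42, 5.24 and 4.15 CPM). ERBB2 held 165 and 168 CPM in LTED-A against 144, 152 and 145 CPM in SUM44PE and was not called (0.18 ± 0.08). Among feedback genes of the MAP kinase pathway, DUSP6, a phosphatase of ERK, stood at 14.1 and 15.3 CPM in LTED-A and 54.7, 55.8 and 54.7 CPM in SUM44PE (-1.90 ± 0.08), and SPRY4 was at 13.9 and 9.89 CPM in LTED-A and at 36.0, 35.6 and 37.9 CPM in SUM44PE (-1.63 ± 0.14), while DUSP5 rose and SPRY2 was not called. Of 28 ligands and feedback genes 3 rose and 5 fell. Among immediate early factors FOS held 0.651 and 0.741 CPM in LTED-A against 3.51, 4.37 and 4.17 CPM in SUM44PE (-2.51 ± 0.20), JUN fell by a log2 value of -1.07, and ATF3 and KLF4 rose by 1.26 ± 0.14 and 1.21 ± 0.08.

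Several WNT ligands were lower in LTED-A. WNT11 stood at 0.651 and 0.859 CPM in LTED-A and 23.7, 23.4 and 23.7 CPM in SUM44PE (-4.91 ± 0.16), and WNT6, WNT9A and WNT3A fell by log2 values of -4.79, -2.69 and -3.40. AXIN2, a direct target of WNT signalling through beta-catenin, was at 0.726 and 0.624 CPM in LTED-A and at 3.46, 3.36 and 3.58 CPM in SUM44PE (-2.38 ± 0.23). WNT10B and FZD4 rose, which made 2 up and 6 down of 24, where 7.05% of all genes were called up and 7.27% down. WNT4, which ILC cells induce with estrogen, held 7.79 and 7.12 CPM in LTED-A against 8.75, 9.04 and 8.90 CPM in SUM44PE (-0.26 ± 0.13, not called). In the BMP and TGF-beta list 6 of 28 rose and 9 fell. BMPR1B, a BMP receptor, stood at 16.8 and 19.0 CPM in LTED-A and 2.86, 2.81 and 3.02 CPM in SUM44PE (2.63 ± 0.13), while LTED-B held 72.1, 70.4 and 66.6 CPM and SUM44F 0.373, 0.467 and 0.713 CPM. TGFBR2 was at 0.175 and 0.0723 CPM in LTED-A and at 4.54, 3.80 and 4.58 CPM in SUM44PE (-5.33 ± 0.47), TGFBR3 held 0.801 and 1.17 CPM in LTED-A against 16.8, 17.1 and 18.6 CPM in SUM44PE (-4.09 ± 0.18), and the ligand BMP5 stood at 0.701 and 0.705 CPM in LTED-A and 11.6, 12.5 and 11.3 CPM in SUM44PE (-4.06 ± 0.14). ID1, a target of BMP signalling, fell by a log2 value of -0.86.

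Most keratins, collagens and adhesion genes were not called, and more of those that were fell than rose. KRT8 was at 2520 and 3003 CPM in LTED-A and at 2667, 2895 and 2797 CPM in SUM44PE, and KRT18 and KRT19 had log2 fold changes of -0.06 ± 0.11 and -0.11 ± 0.11, all with overlapping groups. KRT7, KRT13, KRT15 and KRT86 passed as falls, 4 of 14, but 2 remained called without LTED-A replicate 1 and none without the averaged LTED-A sample. Of 32 collagens, laminins and integrins 4 rose and 10 fell, with a median of -0.52, and the rises numbered 2 without SUM44PE replicate 1 or LTED-A replicate 1. Among chains of laminin 332, a protein of basement membranes, LAMA3 held 6.81 and 6.87 CPM in LTED-A against 44.6, 45.2 and 46.4 CPM in SUM44PE (-2.73 ± 0.09), and LAMB3 fell too. ITGB6 stood at 14.3 and 17.7 CPM in LTED-A and 109.9, 116 and 115 CPM in SUM44PE (-2.82 ± 0.09), and LAMB1 was at 27.2 and 28.4 CPM in LTED-A and at 115, 125 and 120.0 CPM in SUM44PE (-2.11 ± 0.08). ITGA5 was the largest rise of the list, and ITGB1 held 269 and 342 CPM in LTED-A against 267, 278 and 268 CPM in SUM44PE with overlapping groups. CDH1, E-cadherin, stood at 16.6 and 15 CPM in LTED-A and 21.0, 20.9 and 21.4 CPM in SUM44PE and was not called (-0.42 ± 0.09). In the cadherin and mesenchymal list 4 of 20 fell, or 2 without the averaged LTED-A sample, and none rose. FN1 and DSG2 fell by log2 values of -1.68 and -1.20. SPARC was at 13.1 and 14.6 CPM in LTED-A and at 59.3, 60.5 and 59.3 CPM in SUM44PE, a call lost without SUM44PE replicate 2 or either LTED-A sample. VIM, a fibroblast gene too, held 0.526 and 0.335 CPM in LTED-A against 2.38, 2.45 and 1.57 CPM in SUM44PE and was not called; it passed when SUM44F replicate 1 was left out and in a model of LTED-A and SUM44PE alone.

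Of the 8 aldo-keto reductases in their list, which reduce steroids and aldehydes, 4 fell, 1 rose (AKR1A1) and 3 were not called. AKR1C2 stood at 1.85 and 2.40 CPM in LTED-A and 154, 174 and 166 CPM in SUM44PE (-6.23 ± 0.15, adjusted p = 1.52e-11), and SUM44F held 9.02, 9.38 and 7.50 CPM. AKR1C3 was at 3.45 and 3.43 CPM in LTED-A and at 25.9, 28.6 and 27.9 CPM in SUM44PE (-3.00 ± 0.12), AKR1B10 held 0.501 and 0.271 CPM in LTED-A against 6.48, 6.21 and 5.70 CPM in SUM44PE (-4.10 ± 0.25) and AKR1C1 fell by a log2 value of -2.97. The AKR1C genes are near-identical copies, so the division of reads among them is uncertain. HMOX1, heme oxygenase, stood at 2.03 and 2.65 CPM in LTED-A and 26.5, 27.1 and 28.9 CPM in SUM44PE (-3.53 ± 0.14), but NQO1 was at 254 and 318 CPM in LTED-A and at 284, 318 and 300.1 CPM in SUM44PE with overlapping groups and GCLM missed the fold limit (0.53 ± 0.10). Of all 27 genes of the list, which also holds glutathione and NRF2 genes, 3 rose and 6 fell with a median of 0.16, and the rises numbered 5 without LTED-A replicate 1 and 1 without the averaged LTED-A sample. STS, the steroid sulfatase that frees estrone and other steroids from their sulfates, held 299 and 314 CPM in LTED-A against 111, 119 and 118 CPM in SUM44PE (1.40 ± 0.08, adjusted p = 2.43e-08), 1 rise against 6 falls among 23 steroid and xenobiotic enzymes. SULT1E1, which sulfates estrogens, stood at 0.0501 and 0.0995 CPM in LTED-A and 0.432, 0.380 and 0.350 CPM in SUM44PE (-2.17 ± 0.31), and HSD17B2, which inactivates estradiol, was at 3.20 and 2.20 CPM in LTED-A and at 9.02, 9.35 and 8.28 CPM in SUM44PE (-1.74 ± 0.16). CYP19A1, aromatase, held 3.85 and 2.37 CPM in LTED-A against 4.27, 2.89 and 3.12 CPM in SUM44PE with overlapping groups.

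Most apoptosis genes were not called, with 2 of 27 up, near the 7.05% of all genes, and 4 down, and 1 of the rises was called without SUM44PE replicate 1 or 2 or the averaged LTED-A sample. HRK, a BH3-only activator of cell death, stood at 4.93 and 4.93 CPM in LTED-A and 1.43, 1.31 and 1.40 CPM in SUM44PE (1.84 ± 0.12), and BMF, another, was at 12.4 and 11.8 CPM in LTED-A and at 45.5, 48.5 and 45.2 CPM in SUM44PE (-1.94 ± 0.09). BIRC3, an inhibitor of apoptosis, fell by a log2 value of -1.58, and BCL2, which ESR1 induces, held 92.2 and 91.5 CPM in LTED-A against 127, 144 and 142 CPM in SUM44PE (-0.58 ± 0.07, just under the fold limit). Of 28 cytokine and STAT3 genes 5 rose and 7 fell. SOCS2, a feedback inhibitor of growth hormone signalling, stood at 50.4 and 61.7 CPM in LTED-A and 13.9, 14.2 and 15.1 CPM in SUM44PE (1.96 ± 0.08), the interleukin 1 receptor IL1R1 was at 128 and 137 CPM in LTED-A and at 37.8, 40.6 and 39.7 CPM in SUM44PE (1.75 ± 0.07), and CCL2, a chemokine, held 6.68 and 8.36 CPM in LTED-A against 25.4, 26.9 and 27.1 CPM in SUM44PE (-1.80 ± 0.14). Glycolysis and hypoxia genes had a median of 0.17, the value on which windows of genes above 5 CPM centred. Of these, 4 of 30 were up and 3 down, and the number of rises changed without LTED-A replicate 1. LDHA stood at -0.36 ± 0.09 and SLC2A1 at 0.41 ± 0.12, neither called.

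The 13 protein-coding genes of the mitochondrial genome were all higher on average, with a median of 1.22, but 3 passed. MT-CO2 stood at 3078 and 2793 CPM in LTED-A and 1354, 1398 and 1400 CPM in SUM44PE (1.08 ± 0.18). MT-ATP6 was at 999.6 and 506 CPM in LTED-A and at 255, 196 and 228 CPM in SUM44PE, with the LTED-A samples far apart. None of the 13 passed without LTED-A replicate 1 or without any SUM44PE sample, and 7 did without the averaged LTED-A sample, MT-CO2 not among them. Cytosolic ribosomal proteins had a median of 0.20, where windows of genes above 5 CPM centred on 0.17. Of these, 3 of 43 rose, RPSA and RPS19 among them, near the 7.05% of all genes called up. None of the list was called up without SUM44PE replicate 1 or 3 or the averaged LTED-A sample, 1 was without SUM44PE replicate 2, and 5 were without LTED-A replicate 1.

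**Figure D4:**
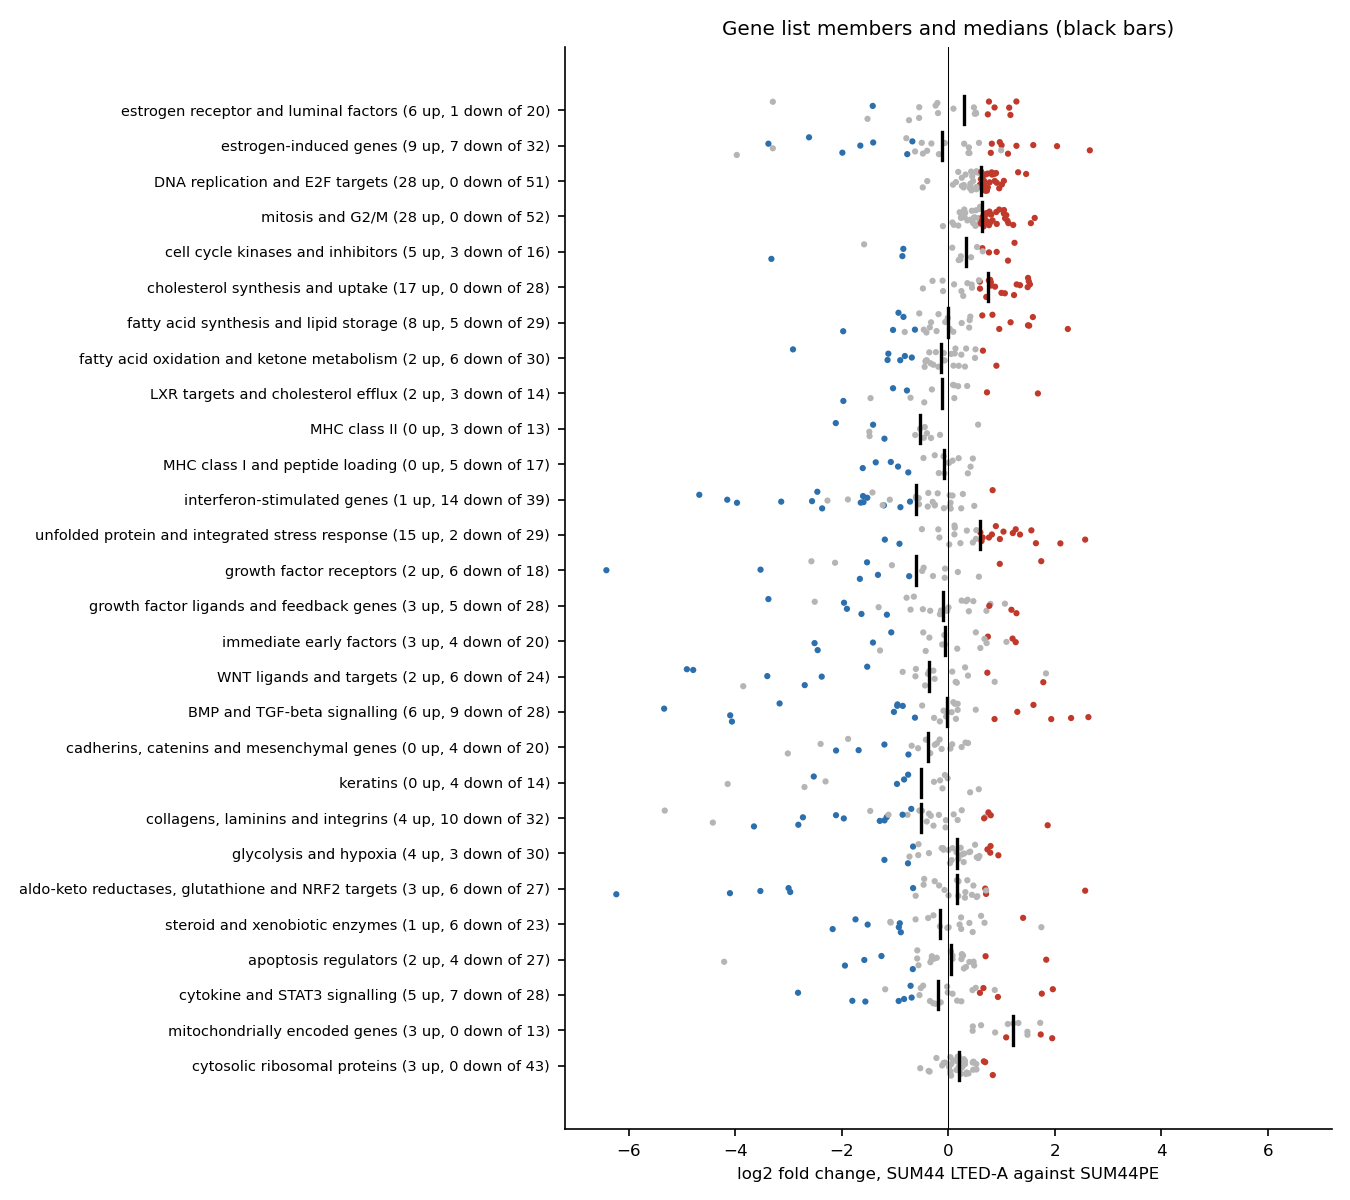
Log2 fold change of LTED-A against SUM44PE (x axis) for the members of 28 gene lists (rows), with members called up in red, called down in blue and not called in grey, and a black bar at each list's median. The replication, mitosis, cholesterol and stress response lists lie to the right of 0 at medians of 0.60 to 0.74, and the interferon list lies to the left at -0.61.

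Ordered along the chromosomes, the differences were not spread evenly. Medians were taken over windows of 40 neighbouring genes above 5 CPM, and of 583 windows 414 lay within 0.25 of 0 on the log2 scale, around a median of 0.17. With windows centred on 0.17, rises pass a limit of 0.5 more easily than falls. Runs of windows past 0.5 in either direction formed 7 stretches with 566 genes, which by that choice lie mostly to 1 side of 0. The most extreme was the proximal long arm of chromosome 13 (chr13:18413127-37059713), where 58 of 60 genes lay above 0, 52 were called up and none down, and the median was 1.85. In the distal arm (chr13:49308650-114337626) 85 of 89 genes lay below 0, 61 were called down and none up, and the median was -0.80. SUM44F differed little from SUM44PE in both, with medians of 0.15 and 0.06.

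In the proximal part of chromosome 13, HMGB1, a chromatin protein, held 876 and 1225 CPM in LTED-A against 306, 345 and 330.1 CPM in SUM44PE (1.68 ± 0.12), and ATP8A2, a phospholipid flippase (chr13:25371974-26025851), stood at 998 and 1016 CPM in LTED-A and 110.2, 121 and 114 CPM in SUM44PE (3.13 ± 0.08). RPL21 was at 690.0 and 864 CPM in LTED-A and at 197, 237 and 222 CPM in SUM44PE, with reads that its many pseudogenes may share. SLC7A1 and GJB2, named above, lie in this part. In the distal part LAMP1, a lysosomal membrane protein, held 78.3 and 85.5 CPM in LTED-A against 145, 155 and 153 CPM in SUM44PE (-0.88 ± 0.09), TM9SF2 stood at 119 and 152 CPM in LTED-A and 219, 238 and 234 CPM in SUM44PE (-0.77 ± 0.10) and MYO16 was at 19.1 and 18.3 CPM in LTED-A and at 158, 159.8 and 158 CPM in SUM44PE (-3.08 ± 0.09). EPSTI1, DNAJC15 and RB1 lie between the 2 parts. LTED-B, tested directly against LTED-A, had 52 of the 60 proximal genes lower and 77 of the 89 distal genes higher, where 4.57% of all genes were called higher and 4.64% lower in LTED-A, 9.21% together. Its own medians against SUM44PE were 0.37 and 0.17.

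Chromosome 6 held a stretch on the short arm (chr6:17615035-27893891, median 0.58, 25 of 80 genes up and 5 down), which covers the histone genes H1-5 and H2BC5, and one on the long arm (chr6:111555381-148552044, median -0.60, 3 up and 40 down). The calls of H1-5 and H2BC5 were lost without any SUM44PE sample or the averaged LTED-A sample. On the long arm, PTPRK, a receptor phosphatase, held 78.1 and 80.8 CPM in LTED-A against 177, 187 and 182 CPM in SUM44PE (-1.20 ± 0.07), and SERINC1 stood at 96.3 and 129.7 CPM in LTED-A and 240.1, 251 and 242 CPM in SUM44PE (-1.11 ± 0.10); 50 of the 80 genes were lower in LTED-A than in LTED-B. SUM44F was already lower than SUM44PE here, with a median of -0.34 and 14 genes called down, and LTED-A against SUM44F had a median of -0.18. The end of chromosome 19 (chr19:51889235-58605223), rich in zinc finger genes, had 83 of 137 genes up and 1 down with a median of 0.70. Here SUM44F already had a median of 0.49 with 49 genes called up, LTED-B one of 0.82, and 2 genes in each direction differed between LTED-A and LTED-B. TRIM28, the corepressor of zinc finger proteins, was at 359 and 364 CPM in LTED-A and at 198, 205 and 204 CPM in SUM44PE (0.84 ± 0.10). The smaller stretches were on chromosome 17 (chr17:42199176-44752264, median 0.45, 14 of 60 up and 2 down) with G6PC3 at 1.04 ± 0.11, and on chromosome 20 (chr20:50184598-63522206, median 0.55, 26 of 60 up and 1 down) with EEF1A2, which held 379 and 408 CPM in LTED-A against 169.9, 182 and 174 CPM in SUM44PE (1.17 ± 0.10). In LTED-A against SUM44F the chromosome 17 stretch had a median of 0.02 and the chromosome 20 stretch one of 0.54. DNA copy number was not measured, and its part in these stretches was not tested.

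**Figure D5:**
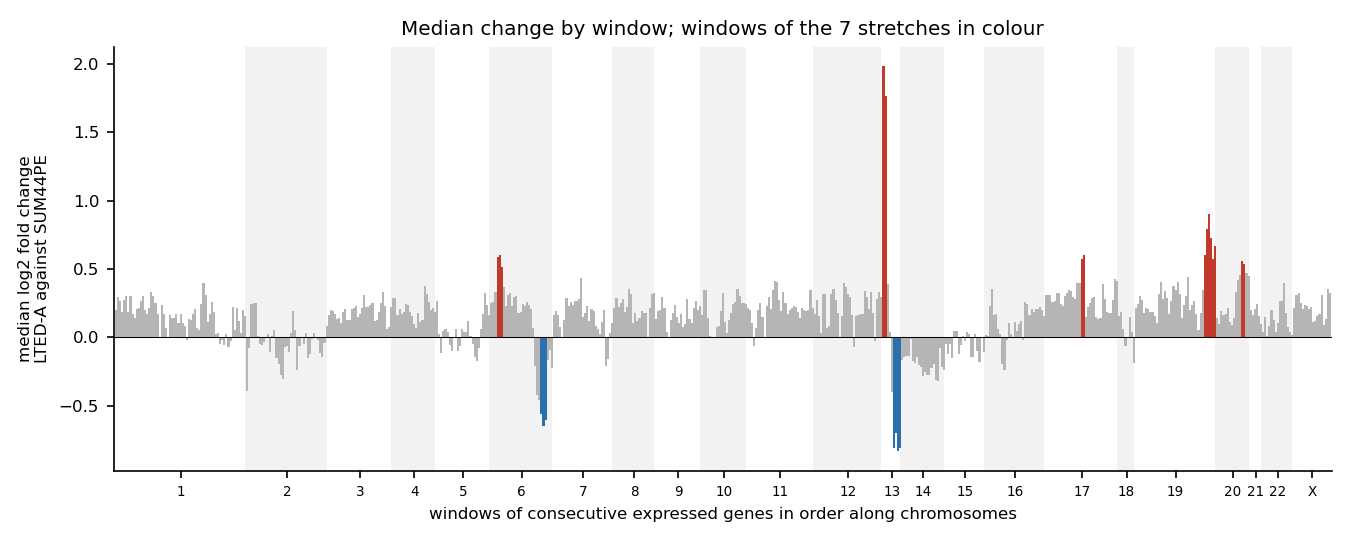
Median log2 fold change of LTED-A against SUM44PE (y axis) in 583 windows of 40 consecutive expressed genes, in order along the chromosomes (x axis), with windows of the 7 stretches in red (higher) or blue (lower). Of the windows 414 lie within 0.25 of 0, and the windows of proximal chromosome 13, at up to 1.99, stand above those of the other chromosomes.

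LTED-B against SUM44F uses none of the libraries of LTED-A against SUM44PE, and the lists of called genes from these 2 comparisons were set side by side. Of the 1937 genes upregulated in LTED-A, 1021 (52.7%) were also called up in LTED-B against SUM44F, where 9.60% of all genes were, and these are 38.7% of its 2636 rises. Of the 1995 falls, 1163 (58.3%) were called down in LTED-B, where 9.62% of all genes were, and these are 44.04% of its 2641 falls. TFF1 is among the shared rises, with 292, 331 and 356 CPM in LTED-B and 16.3, 16.3 and 12.7 CPM in SUM44F, and so are ASNS with 102, 100.1 and 94.5 against 33.5, 34.1 and 31.4 CPM and SLC7A11 with 102, 93.2 and 94.2 against 8.52, 7.65 and 9.11 CPM. MET, at 1.16, 0.928 and 0.809 against 23.2, 19.8 and 19.0 CPM, and GBP2, at 4.77, 4.64 and 4.65 against 55.0, 50.5 and 48.8 CPM, are among the shared falls. The pairs of groups still share their origin in 1 cell line and 1 sequencing study. Both were also tested in 1 model, with the same filter and the same estimate of spread for each gene.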

How the data were processed

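RNA-seq libraries of SUM44 cells (total RNA, stranded TruSeq libraries, Illumina HiSeq 2000) were quantified by the authors with Salmon 0.6.0 on hg38 with Ensembl 82 annotation, and the deposited values are estimated counts per gene, not normalized, in 1 table for all 27 samples. The strand setting of the counting is not given in the sources used here. Depth in the single SUM44 libraries was 34591553 to 134882175 counts, and the averaged LTED-A sample held 123285954. Depth limits precision for genes under about 1 CPM. The 3-count floors cover counting error only, and standard errors include the spread between wells.

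The counts were rounded. LTED-A replicates 2 and 3, whose counts had a chi-square below its degrees of freedom, were averaged, since the other 26 replicate pairs had 2.346 to 58.15 times theirs. The highest values, 58.15 and 56.6, were those of LTED-A replicate 1 against replicates 2 and 3. The SUM44PE pairs had 6.22 to 13.34. These values were not corrected for depth, and LTED-A replicates 2 and 3 were the deepest libraries. The test nevertheless used a spread shared by all groups in the model. One model over SUM44PE (3 samples), SUM44F (3), LTED-A (2) and LTED-B (3) was fitted with edgeR 4.0.16 (R 4.3.3), with its filter on low counts, trimmed mean of M-values scaling and the quasi-likelihood test, Benjamini-Hochberg adjusted over 27457 genes. Genes were called at a fold above 1.5 and an adjusted p under 0.001, the limits of the study. Levels are CPM after scaling, log2 fold changes come from the model, and standard errors were derived from its F statistic. On simulated counts with 26442 genes for LTED-A against SUM44PE, 47 of 100 genes changed 2-fold and 90 of 100 changed 4-fold were recovered, with 0 false calls.

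Named genes were the 12 largest rises and falls at 5 CPM or more without overlap, the 4 largest gains and losses in CPM, the 6 largest changes of each pattern in SUM44F, the 5 largest called and fixed lead members of each of 33 gene lists, and 3 genes of each stretch; others were named after their values were seen. Some genes that this rule names are not reported here, although they remain in the counts of their lists. The members and lists were chosen with earlier results of these data known. Gene positions are from GENCODE v44 on GRCh38 and promoters from RefSeq on GRCh38.p14. DESeq2 1.42.0, other scalings, filters, thresholds and left-out samples were tried as alternatives.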

Additional observations from a re-analysis of the deposited data

Results flagged for a closer look

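Among the genes reported here, 4 were called in opposite directions in LTED-A and LTED-B against SUM44PE, and the direct test of LTED-A against LTED-B (edgeR's quasi-likelihood test, Benjamini-Hochberg adjusted) passed for each. CPB1 had log2 fold changes of 3.13 (LTED-A) and -2.01 (LTED-B), a difference of 5.14 ± 0.12 (adjusted p = 3.76e-11). NPY1R stood at 2.69 and -2.31, a difference of 4.999 ± 0.132 (adjusted p = 6.73e-11). FGFR3 stood at -1.66 and 0.83, a difference of -2.49 ± 0.12 (adjusted p = 1.42e-08). BOK, a BCL2 family member, stood at -1.26 and 1.36, a difference of -2.62 ± 0.17 (adjusted p = 1.57e-07), and its call against SUM44PE was lost without the averaged LTED-A sample. In CPB1 and NPY1R every LTED-A sample lay above and every LTED-B sample below all SUM44PE samples, and in FGFR3 and BOK the order was the opposite.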

How the results depend on the processing

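The 1937 rises of LTED-A against SUM44PE became 1079 with only these groups in the model, 1251 with library totals, 687 with a fold minimum of 2, and 1244 (without SUM44PE replicate 1) to 2118 (without LTED-A replicate 1) when samples were left out. The 1995 falls became 3503 at an adjusted p under 0.05 and 1533 to 2062 with samples left out. For SUM44F against SUM44PE, higher genes numbered 410 with a fold minimum of 2, 1527 at an adjusted p under 0.05 and 481 to 676 with samples left out, and lower genes 360, 1344 and 584 to 795. The causes were not tested, except that a stricter or looser limit passes fewer or more genes by definition. DESeq2 gave 2149 rises and 2071 falls, and no alternative reversed a named gene. Named genes did lose their call: 46 with a fold minimum of 2, 33 with only these groups in the model (among those in the text also ATF3, ID1, EPSTI1, SULT1E1 and TM9SF2), 13 with library totals, 12 with a replicate block, 7 with at least 10 counts in every sample, and 14 to 38 with a sample of either group left out. With only these groups in the model, KRT13, KRT15, RPSA, RPS19, MT-ATP6 and both histone genes named above lost their call too. Leaving out SUM44F replicate 1 was chosen after seeing the data. LTED-A left out as replicate 2 means the average of replicates 2 and 3, and the lone sample is then assumed to vary like the other groups.

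Deviations of same-numbered LTED-A and SUM44PE libraries from their group means had correlations of -0.079, 0.287 and -0.202. LTED-A replicates 2 and 3 were near-identical, so this check cannot show whether replicate numbers paired the samples. With a replicate block the rises numbered 1630 and the falls 1783. Genes near the 3-count floor and changes under 2-fold are the ones that depth and 2 LTED-A samples limit.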
